A study of Mus musculus with 8 samples.

Results

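The mRNAs of 5 autophagy receptors and of 5 ATG8 family genes were examined in mouse cells exposed to auranofin, a gold compound used against rheumatoid arthritis. The receptors were Sqstm1, Nbr1, Optn, Tax1bp1 and Calcoco1, and the ATG8 genes were Map1lc3a, Map1lc3b, Gabarap, Gabarapl1 and Gabarapl2. The members were taken by gene symbol, with no rule on their values but with earlier results of these data known. All 10 were found among the 18645 genes listed for hepatic stellate cells (HSC) and among the 17408 genes listed for bone marrow-derived macrophages (BMDM). Poly(A) RNA sequencing had been done on 8 libraries in 4 groups of 2, from cells of C57BL/6 mice. Activated HSC, isolated from liver by density gradient from mice whose age is not given in the sources used here and activated in culture, received 0.03 µM auranofin or no auranofin for 12 h. BMDM were grown out of bone marrow of male mice aged 8 weeks with macrophage colony-stimulating factor, and all 4 BMDM libraries, controls included, came from cells treated with 100 ng/mL LPS and 1 mM ATP. Auranofin was given to these cells for 1 h at 0.1 µM by the sample labels, while the study's figure legend gives a higher dose. Control libraries are labelled as untreated in HSC and are called vehicle here, after the study. The labels do not say whether replicates came from separate cultures or animals, so the p-values measure only the spread between these samples, which may be technical.

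Selective autophagy removes chosen cargo, such as protein aggregates, damaged mitochondria or bacteria, by enclosing it in an autophagosome that fuses with a lysosome. Receptors hold the cargo, usually through ubiquitin, and bind with a short LC3-interacting motif to ATG8 proteins, which are attached to the lipid of the growing membrane. The ATG8 family has an LC3 branch (Map1lc3a, Map1lc3b) and a GABARAP branch (Gabarap, Gabarapl1, Gabarapl2). The product of Sqstm1, p62, also binds KEAP1, the adaptor that marks the transcription factor NRF2 for degradation, and Sqstm1 is itself a known NRF2 target gene. Receptor and lipidated ATG8 proteins are consumed in the lysosome, so mRNA levels do not measure autophagic flux, and no protein was measured in these libraries.

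The depth of the libraries, estimated from the steps of single fragments in low values, was 29800000 to 39400000 fragments in HSC and 27500000 to 34900000 fragments in BMDM. In BMDM the 2 auranofin libraries, labelled with the same treatment, went apart, since 1401 of the 9232 genes tested were at least 1.5-fold above the vehicle mean in replicate 1 against 35 in replicate 2. Replicate 2 lay close to the vehicle libraries also in 11 genes of the KEAP1-NRF2 pathway, with a median of -0.07 on the log2(FPKM + 1) scale against 2.67 in replicate 1. Which of the 2 shows the labelled exposure cannot be told from the files, and every BMDM fold change below averages over both. The auranofin replicates of BMDM differed from each other by at least 1.5-fold in 2130 genes, the vehicle replicates in 90, and the corresponding numbers in HSC were 114 and 99. The HSC libraries also held macrophage transcripts at high level, with Lyz2, the lysozyme of myeloid cells, at 5379 to 5554 FPKM and the 15 macrophage markers together at 8030 to 8265 FPKM. Of the defining stellate markers, Acta2 (smooth muscle actin) was at 737 to 965 FPKM, Col1a1 (collagen I) at 927 to 1075, Des (desmin) at 43.4 to 55.1 and Lrat, which stores retinol as esters, at 1.70 to 2.85. In BMDM, Lyz2 was at 3625 to 4278 FPKM, Acta2 at no more than 1.10, Col1a1 at 1.59 to 2.87 and Des at no more than 0.011. The 14 stellate markers listed in BMDM nevertheless summed to 2895 to 3036 FPKM, and 6 of them reached a mean of 1 FPKM. None of the hepatocyte markers listed in HSC reached a mean of 1 FPKM, and together they came to no more than 2.55 FPKM in any HSC library.

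Promoter sequences are shown first for Sqstm1 and Gabarapl1, the members that passed the test in HSC, for Map1lc3b, an ATG8 gene that was also at least 1.5-fold above vehicle in BMDM auranofin replicate 1, and for Gabarap, the ATG8 gene with the highest level and the smallest ratio to vehicle in that library. Each run is the 250 bases before the RefSeq start (GRCm38.p6, the mm10 assembly), 5′ to 3′ on the strand of the gene, with GC boxes (GGGCGG or its complement CCGCCC, bound by SP1 family factors) in capitals. The window of Sqstm1 is chr11:50210821-50211070 on the minus strand, that of Gabarapl1 chr6:129532942-129533191, that of Map1lc3b chr8:121590188-121590437 and that of Gabarap chr11:69991120-69991369, these 3 on the plus strand.
Sqstm1: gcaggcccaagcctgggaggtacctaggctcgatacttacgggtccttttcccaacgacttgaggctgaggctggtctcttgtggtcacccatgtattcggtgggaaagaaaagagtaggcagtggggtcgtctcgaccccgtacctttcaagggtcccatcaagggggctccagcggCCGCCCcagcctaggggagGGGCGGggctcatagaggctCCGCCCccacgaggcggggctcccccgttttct
Gabarapl1: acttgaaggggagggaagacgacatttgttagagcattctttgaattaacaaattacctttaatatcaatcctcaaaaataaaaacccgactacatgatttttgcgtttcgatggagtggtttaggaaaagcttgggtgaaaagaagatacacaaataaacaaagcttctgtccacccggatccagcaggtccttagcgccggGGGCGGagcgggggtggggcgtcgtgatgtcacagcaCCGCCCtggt
Map1lc3b: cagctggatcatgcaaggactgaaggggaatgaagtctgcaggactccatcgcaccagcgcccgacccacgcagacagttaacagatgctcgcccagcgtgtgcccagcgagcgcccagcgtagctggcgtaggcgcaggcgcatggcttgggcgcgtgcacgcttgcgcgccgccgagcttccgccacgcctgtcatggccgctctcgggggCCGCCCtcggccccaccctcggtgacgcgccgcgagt
Gabarap: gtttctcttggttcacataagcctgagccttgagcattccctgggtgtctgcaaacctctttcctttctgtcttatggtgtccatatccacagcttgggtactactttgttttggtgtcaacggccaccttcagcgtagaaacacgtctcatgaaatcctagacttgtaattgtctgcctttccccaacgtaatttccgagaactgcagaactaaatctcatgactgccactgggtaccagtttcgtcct

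The Sqstm1 window held 3 GC boxes, 72, 53 and 33 bases before the start, Gabarapl1 held 2, 47 and 10 bases before it, and Map1lc3b held 1, 37 bases before it. Gabarap held none. A GC box was found in 6 of the 11 windows of the members (9 genes had at least 1 window) and in 32.7% of all 32851 windows. The windows of Sqstm1 and Map1lc3b were rich in G and C, at 63.2% and 69.6%, while those of Gabarapl1 and Gabarap were at 46.8% and 46.4%, against a median of 52.4% over all windows. The core of the antioxidant response element bound by NRF2 (TGACNNNGC, on either strand) was in 10.2% of all windows and in 1 member window, the second window of Tax1bp1, where TGACGAAGC began 205 bases before the start. Neither Sqstm1 nor Gabarapl1 had these letters in its window, which says nothing of sites elsewhere. No member window held the AP-1 element TGANTCA, the E-box CACGTG, the inverted heat shock pair GAANNTTC, the C/EBP-ATF element TGANGCAA, the forkhead element GTAAACA, the cAMP response element TGACGTCA or TATAAA. These were in 6.75%, 6.02%, 6.69%, 3.12%, 3.17%, 1.55% and 12.4% of all windows, in the same order.

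The levels of the members without auranofin are given in FPKM, fragments scaled to transcript length and to the depth of the library, which allows genes of different length to be set side by side within a library. In vehicle HSC, Sqstm1 was highest at 340 and 320 FPKM, followed by Gabarap at 296 and 290. Map1lc3b (126 and 124) and Gabarapl1 (125 and 123) followed and overlapped with each other. Below them came Tax1bp1 at 61.7 and 60.8, Gabarapl2 at 49.8 and 46.7, Map1lc3a at 36.1 and 37.7, Nbr1 at 35.6 and 33.3, Calcoco1 at 30.0 and 31.1 and Optn at 15.8 and 14.9, and no neighbours among these overlapped.

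In vehicle BMDM, Sqstm1 was far above the other members, at 2307 and 2292 FPKM, and over the 4 BMDM libraries it ranked between 5 and 26 among all genes, against 118 and 191 in HSC. Gabarap was again the highest ATG8 gene, at 318 and 301 FPKM. Tax1bp1 was at 86.2 and 90.3, Map1lc3b at 43.8 and 41.1, Gabarapl2 at 30.9 and 34.4 and Gabarapl1 at 31.4 and 32.3, of which the last 2 overlapped. Optn was at 20.8 and 20.5, Map1lc3a at 8.19 and 8.18, Nbr1 at 7.99 in both libraries and Calcoco1 at 3.59 and 3.73. The 2 tables were normalized apart and differ in stimulus, dose and time, so no test was made between the cell types.

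**Figure D1:**
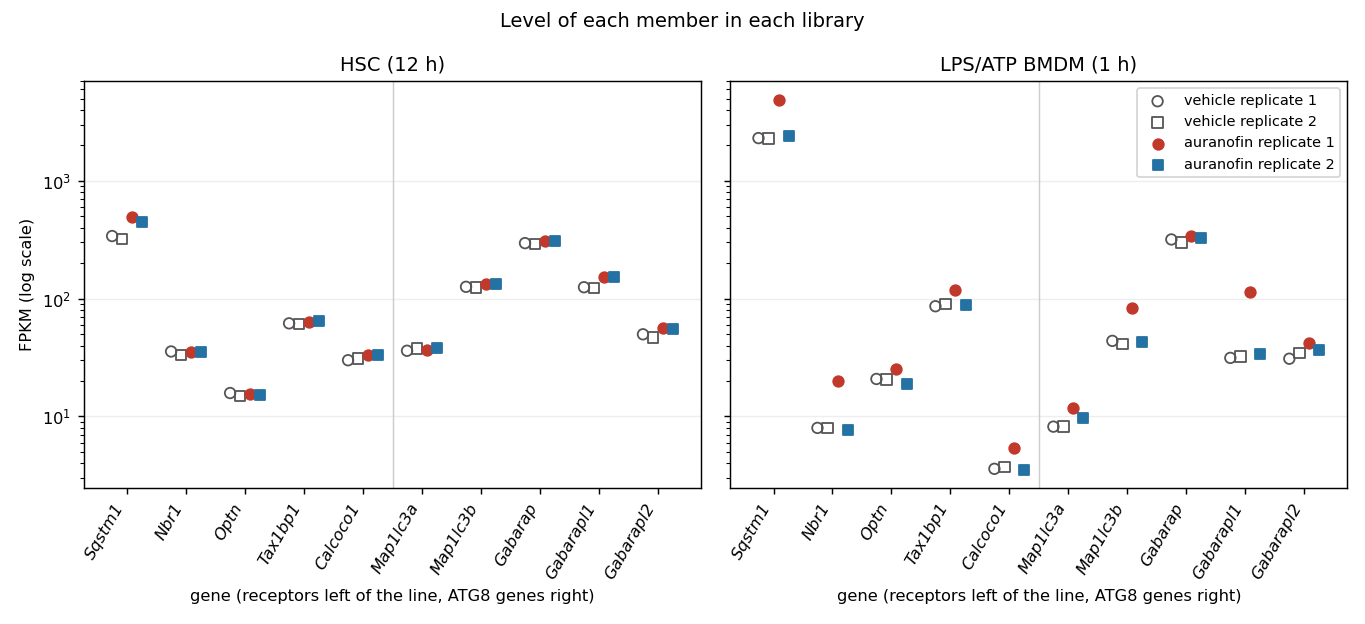
FPKM (log scale) of the 10 members in each of the 4 HSC libraries (left) and the 4 BMDM libraries (right), with open symbols for vehicle and filled symbols for auranofin, 1 point per library. In HSC the filled points of Sqstm1 (493 and 449) and Gabarapl1 (153 and 152) lie above the open ones, and in BMDM auranofin replicate 1 (filled circles) lies above the other 3 libraries for all 10 genes.

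In HSC the comparison asked which mRNAs differ after 12 h of 0.03 µM auranofin. Of the 10 members, Sqstm1 and Gabarapl1 rose and none fell, at an adjusted p under 0.05 (limma, Benjamini-Hochberg over the 12149 genes tested). Over all genes tested in the same fit, 2.33% were called, 1.24% as higher and 1.09% as lower. The log2 fold change was above 0 in 9 of the 10 members, with a median of 0.08 against 0.00 over all genes tested. Both auranofin libraries lay above both vehicle libraries in 7 members, which held for 26.2% of all genes, and the other 3 members overlapped. Groups that were apart in either direction were found in 50.1% of all genes. No member reached 1.5-fold above the vehicle mean in auranofin replicate 1 or 2, as 0.617% and 0.642% of genes did, and none passed a rule of 1.5-fold with an unadjusted p under 0.05, as 0.576% of genes did. Every member passed the filter of a mean of 1 FPKM, and none came near it in any HSC library. The smallest two-sided p that exact permutation allows for a single gene, with 2 libraries in each group, is 0.333, so the calls rest on limma's model across all genes.

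Among the receptors, Sqstm1 was the member that rose in HSC. It stood at 340 and 320 FPKM in the vehicle libraries and at 493 and 449 FPKM in the auranofin libraries, or 330 ± 14.4 against 471 ± 31.4 (mean ± SD, n = 2). Both auranofin libraries lay well above both vehicle libraries, at 1.49 and 1.36 times the vehicle mean. The log2 fold change on the log2(FPKM + 1) scale was 0.51 (SE 0.06, 95% interval 0.37 to 0.65, limma with Benjamini-Hochberg adjusted p = 0.0149). The call was lost with no filter on low values (adjusted p = 0.0942) and without the mean-variance trend in limma (adjusted p = 0.0536).

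The other receptors moved little in HSC. Nbr1, a ubiquitin-binding receptor that works with p62 in gathering aggregates, was at 35.6 and 33.3 FPKM in vehicle and at 35.1 and 35.5 in auranofin. Optn, a receptor for damaged mitochondria and bacteria that is switched on by the kinase TBK1, was at 15.8 and 14.9 against 15.4 and 15.2. The groups overlapped in both genes, with log2 fold changes of 0.04 (95% interval -0.07 to 0.15) and -0.00 (95% interval -0.12 to 0.11). Tax1bp1, a receptor that also dampens NF-κB signalling, was at 61.7 and 60.8 in vehicle and at 63.6 and 64.3 in auranofin. Calcoco1, a receptor for parts of the endoplasmic reticulum and Golgi, was at 30.0 and 31.1 against 33.0 and 33.3. Both auranofin libraries were above both vehicle libraries in these genes, by small steps that did not pass the test, with log2 fold changes of 0.06 (adjusted p = 0.402 by limma with Benjamini-Hochberg) and 0.12 (adjusted p = 0.205). The intervals of all 4 genes ended at 0.21 or lower, the interval of Calcoco1 reaching highest.

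In the GABARAP branch, Gabarapl1, whose protein takes part in late autophagosome maturation, rose in HSC from 125 and 123 FPKM to 153 and 152 FPKM. The means were 124 ± 1.3 and 153 ± 1.33 (SD, n = 2), so that replicates lay closer together than in Sqstm1 and the step was smaller. The log2 fold change was 0.30 (SE 0.03, 95% interval 0.22 to 0.38, limma with Benjamini-Hochberg adjusted p = 0.013). The call was lost with no filter on low values (adjusted p = 0.0538), without the trend (adjusted p = 0.0621) and without auranofin replicate 1 (log2 fold change 0.29, adjusted p = 0.0603). Gabarapl2, also known as GATE-16, was at 49.8 and 46.7 FPKM in vehicle and at 55.9 and 55.6 in auranofin. The groups did not overlap, but the log2 fold change of 0.21 (95% interval 0.10 to 0.31) missed the threshold (limma, Benjamini-Hochberg adjusted p = 0.0776) and passed it only without vehicle replicate 1 (0.25, adjusted p = 0.0269). Gabarap, the founding member of the branch, was at 296 and 290 against 310 and 307, with a log2 fold change of 0.07 whose 95% interval included 0 and ended at 0.15 (adjusted p = 0.294).

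In the LC3 branch no member passed the test in HSC. Map1lc3b, the gene of the LC3B protein used as the standard autophagosome marker, was at 126 and 124 FPKM in vehicle and at 134 and 132 in auranofin. Map1lc3a, the gene of LC3A, was at 36.1 and 37.7 against 36.6 and 37.8. The groups were apart in Map1lc3b and overlapped in Map1lc3a, and the log2 fold changes were 0.09 (95% interval 0.01 to 0.17, limma with Benjamini-Hochberg adjusted p = 0.241) and 0.01 (95% interval -0.09 to 0.11, adjusted p = 0.914).

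**Figure D2:**
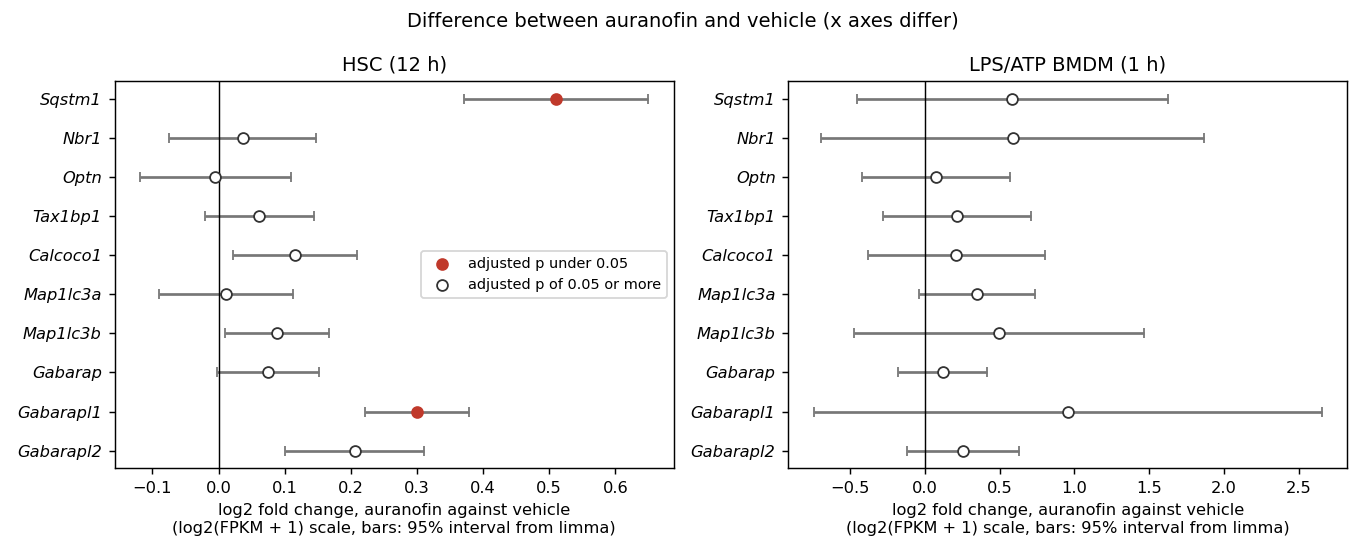
Log2 fold change of auranofin against vehicle for the 10 members, on the log2(FPKM + 1) scale, in HSC (left) and BMDM (right), with 95% intervals from limma as bars and 2 libraries in each group. Filled points mark Sqstm1 (0.51) and Gabarapl1 (0.30) in HSC, the only members with an adjusted p under 0.05, and every BMDM interval includes 0. The x axes differ between the panels.

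Some cell type markers also moved in HSC. The 15 stellate markers summed to 7545 and 7636 FPKM in vehicle and to 6707 and 6858 in auranofin, and 1 of the 15 was called, Acta2, which fell from 956 and 965 FPKM to 743 and 737 (log2 fold change -0.38, limma with Benjamini-Hochberg adjusted p = 0.00719). Only 4 of the 15 were above 0, and the median log2 fold change was -0.09. An unadjusted p under 0.05 (limma) was found in 9 of the 15 and in 17.8% of all genes. The 15 macrophage markers summed to 8197 and 8265 in vehicle and to 8039 and 8030 in auranofin. Of the 14 tested, Clec4f, a Kupffer cell lectin, rose (0.27) and Mrc1, the mannose receptor, fell (-0.28). The 10 endothelial markers summed to 387 and 374 FPKM in vehicle and to 379 and 360 in auranofin, and Clec4g (-0.44) and Stab2 (-0.37), genes of sinusoidal endothelium, fell, while 5 of the 10 were above 0 and the median was -0.01. Of all genes 2.33% were called. The part of these shifts in the rises of Sqstm1 and Gabarapl1 was not tested, and in bulk RNA fewer cells of a type and less RNA per cell cannot be told apart.

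In BMDM the comparison asked which mRNAs differ after 1 h of auranofin on top of LPS and ATP. No member was called (limma, Benjamini-Hochberg adjusted p 0.721 to 0.848), none had an unadjusted p under 0.05 and none passed a rule of 1.5-fold with an unadjusted p under 0.05. Over the 9232 genes tested, 0.0108% (1 gene) were called by adjusted p, 0.531% had an unadjusted p under 0.05 and 0.152% passed the fold rule. The log2 fold change was above 0 in 10 of 10 members, with a median of 0.30 against 0.09 over all genes tested. In Nbr1, Optn and Calcoco1 this direction rested on auranofin replicate 1, since their log2 fold changes were negative without it. Tax1bp1 (0.01) and Map1lc3b (0.03) were close to level without it, and in both genes replicate 2 lay inside the vehicle range. Both auranofin libraries lay above both vehicle libraries in 5 members, which held for 26.3% of all genes, while 38.8% were apart in either direction. In simulated data, the spread of each gene, pooled over the 2 groups, was given to all 4 libraries alike. None of 200 genes changed 2-fold was recovered by adjusted p in BMDM, against 183 of 200 in HSC. The 1.5-fold rule recovered 170 and 195 of them, with 178 and 25 false calls. The real gap in BMDM lay between the auranofin libraries, so the simulation does not mirror it. In HSC no member's log2 fold change exceeded 0.51, which is less than 2-fold. The simulation therefore does not show how often changes of the members' size would be recovered.

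Auranofin replicate 1 was above the vehicle mean in all 10 members, by 0.15 to 1.81 on the log2(FPKM + 1) scale with a median of 0.47, where the median of all genes was 0.18. Sqstm1, Nbr1, Map1lc3b and Gabarapl1 were at least 1.5-fold up in it on that scale, or 4 of 10 members, as were 15.2% of all genes tested. Auranofin replicate 2 deviated from the vehicle mean by -0.13 to 0.22, with a median of 0.05 and 0.00 over all genes, and no member reached 1.5-fold in it, as 0.379% of genes did. These per-library shares carry no test. Without auranofin replicate 1 the median log2 fold change over the members was 0.05, and without auranofin replicate 2 it was 0.47. Either fit assumes that the lone auranofin library varies like the vehicle libraries.

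Sqstm1 was at 2307 and 2292 FPKM in vehicle and at 4902 and 2426 FPKM in auranofin. Auranofin replicate 1 stood at 2.13 times the vehicle mean and replicate 2 at 1.05 times, both above the vehicle libraries. The log2 fold change was 0.58 (SE 0.37, 95% interval -0.46 to 1.62), and 1.09 without auranofin replicate 2. Nbr1 was at 7.99 in both vehicle libraries and at 19.9 and 7.70 in auranofin, so that replicate 1 was 2.50 times the vehicle mean while replicate 2 was below both vehicle libraries.

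The remaining receptors split in the same manner. Optn was at 20.8 and 20.5 FPKM in vehicle and at 25.3 and 18.8 in auranofin, and Tax1bp1 at 86.2 and 90.3 against 118 and 88.7. Calcoco1, the lowest member, was at 3.59 and 3.73 against 5.43 and 3.53, and its value rested on at least 290 fragments in each library. In Nbr1, Optn and Calcoco1 the auranofin libraries lay on either side of the vehicle libraries, and in Tax1bp1 replicate 2 lay between them. The log2 fold changes were 0.59 for Nbr1, 0.07 for Optn, 0.21 for Tax1bp1 and 0.21 for Calcoco1, all with intervals across 0. That of Optn turned to -0.02 with each library centred on its median, so it had no stable direction, and without auranofin replicate 1 Nbr1 (-0.05), Optn (-0.13) and Calcoco1 (-0.04) turned negative.

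Among the ATG8 genes of BMDM, Gabarapl1 had the widest gap between the auranofin libraries. It was at 31.4 and 32.3 FPKM in vehicle and at 114 and 34.2 FPKM in auranofin, or 3.58 and 1.08 times the vehicle mean. The log2 fold change was 0.96 (SE 0.61, 95% interval -0.74 to 2.65), and 1.81 without auranofin replicate 2. Map1lc3b was at 43.8 and 41.1 against 83.7 and 43.2, or 1.97 and 1.02 times the vehicle mean, with replicate 2 inside the vehicle range. Its log2 fold change was 0.50 (95% interval -0.47 to 1.46).

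The other ATG8 genes differed less between the auranofin libraries, and in each of them both lay above both vehicle libraries. Map1lc3a was at 8.19 and 8.18 FPKM in vehicle and at 11.8 and 9.71 in auranofin, the latter 1.44 and 1.19 times the vehicle mean. Gabarapl2 was at 30.9 and 34.4 against 41.9 and 36.4, or 1.28 and 1.11 times. Gabarap was at 318 and 301 against 342 and 330, or 1.11 and 1.07 times. The log2 fold changes were 0.35 for Map1lc3a (95% interval -0.04 to 0.74), 0.25 for Gabarapl2 (-0.12 to 0.63) and 0.12 for Gabarap (-0.18 to 0.42). Relative to the median of all genes, which was itself at 0.09, Gabarap was nearly level. The macrophage markers of these libraries summed to 9054 and 8905 FPKM in vehicle and to 9873 and 9075 in auranofin, and the 10 endothelial markers to 74.9 and 77.5 against 50.5 and 75.4, so auranofin replicate 1 also differed there, and the part of this in the members' values was not tested.

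**Figure D3:**
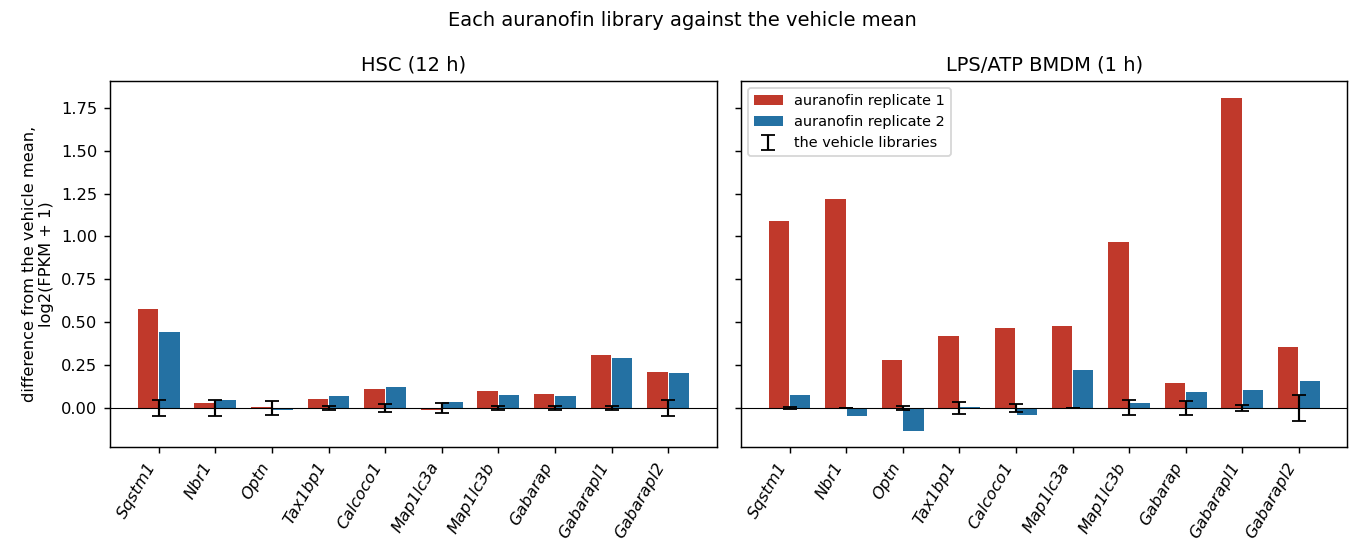
Difference of each auranofin library from the vehicle mean on the log2(FPKM + 1) scale, for the 10 members in HSC (left) and BMDM (right), with red bars for auranofin replicate 1, blue bars for replicate 2 and black brackets spanning the 2 vehicle libraries. In HSC the 2 bars of a gene are of similar height, while in BMDM replicate 1 reaches 1.81 (Gabarapl1) and replicate 2 stays between -0.13 and 0.22.

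The make-up of the ATG8 pool, each gene as a share of the summed FPKM of the 5 genes, does not depend on the scaling between libraries. In HSC, Gabarap made up 46.8% and 46.7% of the pool in vehicle and 44.9% in both auranofin libraries. Gabarapl1 made up 19.7% and 19.8% in vehicle and 22.3% and 22.2% in auranofin. Map1lc3b made up 19.9% and 20.0% in vehicle and 19.4% and 19.3% in auranofin, Map1lc3a 5.72% and 6.06% against 5.30% and 5.53%, and Gabarapl2 7.88% and 7.52% against 8.11% and 8.14%. The shares of Gabarapl1 and Gabarapl2 were thus higher, and those of the other 3 genes lower, in both auranofin libraries than in both vehicle libraries. The ratio of Gabarapl1 to Gabarap was 0.421 and 0.423 in vehicle and 0.495 and 0.493 in auranofin. In BMDM, Gabarap held 73.6% and 72.2% of the pool in vehicle, 57.6% in auranofin replicate 1 and 72.8% in replicate 2. Gabarapl1 held 7.26% and 7.74% in vehicle, 19.2% in auranofin replicate 1 and 7.55% in replicate 2. Auranofin replicate 1 therefore differed in make-up as well as in level, while replicate 2 lay within the vehicle range for both genes.

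**Figure D4:**
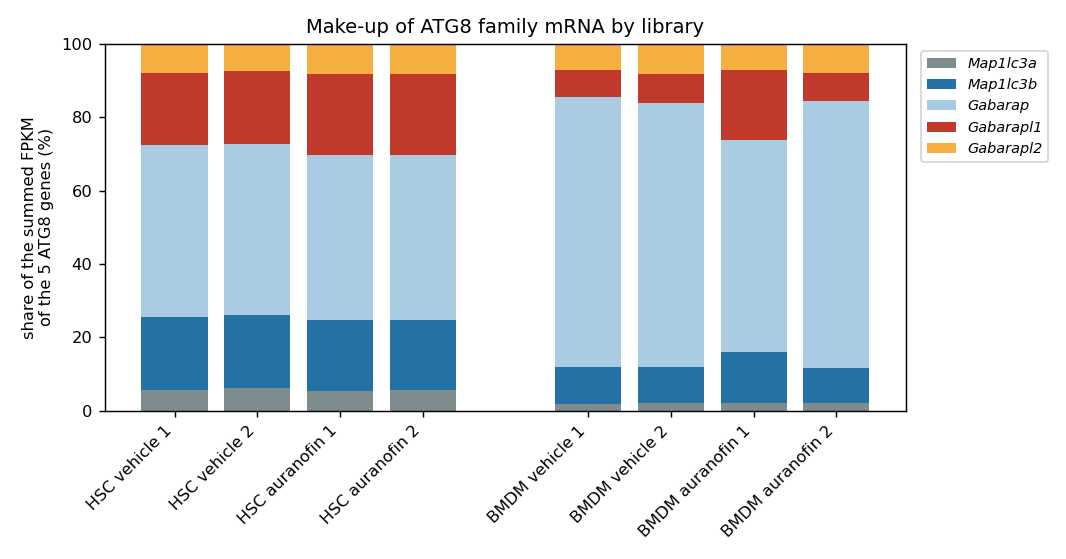
Share of each ATG8 gene in the summed FPKM of the 5 genes (%), 1 stacked bar per library. Gabarapl1 (red) takes 22.3% and 22.2% in auranofin HSC against 19.7% and 19.8% in vehicle, and 19.2% in BMDM auranofin replicate 1 against 7.26% to 7.74% in the other BMDM libraries.

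Among the receptors, Sqstm1 held most of the summed FPKM in every library. In HSC its share was 70.4% and 69.6% in vehicle and 77.0% and 75.2% in auranofin, while Tax1bp1 went from 12.8% and 13.2% to 9.94% and 10.8%. In BMDM it held 95.1% and 94.9% in vehicle and 96.7% and 95.3% in auranofin. The ratio of Sqstm1 to Map1lc3b, a receptor set against the LC3 it binds, was 2.71 and 2.58 in vehicle HSC and 3.68 and 3.41 in auranofin HSC. In BMDM the same ratio was 52.7 and 55.8 in vehicle and 58.5 and 56.1 in auranofin, so that Sqstm1 and Map1lc3b stood higher by similar factors in auranofin replicate 1.

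The rest of the pathway was described from lists of genes. In HSC none of the 29 tested genes of the autophagosome machinery (initiation kinases, lipid kinase subunits and the enzymes that attach ATG8 to lipid) was called, with 24 of 29 above 0 and a median log2 fold change of 0.05. None of 15 other selective autophagy receptors (median 0.02), 12 receptor kinases and ubiquitin genes (0.04) and 20 lysosomal and TFEB genes (0.03) was called either, by limma with Benjamini-Hochberg adjustment. Of all genes tested 2.33% were called, so lists of 12 to 29 genes with no call lay near that share. The median log2 fold change of all genes was 0.00. At an unadjusted p under 0.05 there were 3, 3, 4 and 1 genes in the 4 lists, in the order named, where 17.8% of all genes passed.

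The KEAP1-NRF2 list, which does not include Sqstm1, differed from these lists, with 8 of 12 genes called as higher and 1 as lower in HSC and a median of 0.57, where 1.24% and 1.09% of all genes were called. Over the 5 lists these were the only 9 calls, and 3 were left with no filter on low values and 5 without auranofin replicate 1. Hmox1, the heme oxygenase, rose from 391 and 368 FPKM to 1297 and 1141 (log2 fold change 1.68, limma with Benjamini-Hochberg adjusted p = 0.00132). Gclm, a subunit of the enzyme that limits glutathione synthesis, rose by 1.58, Nqo1, a quinone reductase, by 1.46 and Srxn1, sulfiredoxin, by 1.18. The gene of NRF2 itself, Nfe2l2, was the 1 that fell, from 123 and 119 FPKM to 102 and 99.0 (-0.26, adjusted p = 0.0289), and it is named because it stood alone, after its value was seen. Sqstm1, at 0.51, lay near the median of this list and below its 4 largest rises.

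In BMDM no gene of the 5 lists was called or had an unadjusted p under 0.05, and the split between the auranofin libraries was seen in all lists. The machinery genes had a median of 0.37 above the vehicle mean in auranofin replicate 1 and of 0.01 in replicate 2, over 28 genes. The corresponding medians were 0.22 and 0.04 for 14 other receptors, 0.23 and -0.01 for 12 receptor kinases and ubiquitin genes and 0.19 and -0.01 for 20 lysosomal genes. Over all genes tested the medians were 0.18 and 0.00, so these last 3 lists lay near the level of all genes. The KEAP1-NRF2 genes were at 2.67 in replicate 1 and at -0.07 in replicate 2, over 11 genes. Single genes are named here after their values were seen. Ulk1, the kinase that starts autophagosome formation, was at 2.61 and 2.69 FPKM in vehicle and at 8.26 and 2.76 in auranofin. Bnip3, a receptor on mitochondria, was at 3.57 and 3.11 against 10.3 and 3.79. Hmox1 was at 82.7 and 86.7 against 4403 and 85.3, so that auranofin replicate 2 lay within the vehicle range. Other genes of the lists fell in auranofin replicate 1. Ikbke was at 190 and 181 against 70.6 and 177, and Atg16l1 at 19.0 and 18.7 against 12.3 and 18.4. The log2 fold change was above 0 in 23 of 28 machinery genes and in 8 of 12 receptor kinases and ubiquitin genes.

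The genes most like Sqstm1 were sought among 5521 genes whose mean reached 5 FPKM in both tables, by the root mean square difference of the deviations from the vehicle mean over the 8 libraries. The closest were Prr13 (0.0496), Mettl7a1 (0.0588), Slc11a1 (0.0716), Spic (0.0726) and Abcc1 (0.0775), all on the log2(FPKM + 1) scale. Prr13, the closest, deviated by 0.58 and 0.54 in the auranofin libraries of HSC and by 1.18 and 0.13 in those of BMDM. Slc11a1 is a metal transporter of phagosomes, Spic a transcription factor of iron-recycling macrophages and Abcc1 an exporter of glutathione conjugates. Of the other members, Map1lc3b was the most like Sqstm1, at rank 114 (0.22), followed by Nbr1 at rank 202 (0.248) and Gabarapl1 at rank 351 (0.277), while Gabarap was at rank 2179 (0.401). Calcoco1 was below 5 FPKM in BMDM and was not ranked. In BMDM auranofin replicate 1, Map1lc3b (0.96) and Nbr1 (1.22) were near Sqstm1 (1.09). In the HSC auranofin libraries, Map1lc3b (0.10 and 0.08) and Nbr1 (0.03 and 0.04) were well below Sqstm1 (0.58 and 0.44). Gabarapl1 was at 0.31 and 0.29 there. Points of 1 library share its depth and its deviation from the others, and what each of them adds to the likeness was not tested.

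Some members share sequence with other genes, and the tables do not say how such reads were assigned. The spliced transcript of Map1lc3b is matched at 95% identity or more over at least 300 bases by 4 processed pseudogenes and that of Gabarapl2 by 3, none of which is listed in either table. Gabarapl1 (chr6:129533192-129542331, mm10) overlaps the antisense transcript 1700101I11Rik, which is listed in both tables. It also overlaps Gm44243, a gene model on the same strand, by 692 bases. Sqstm1 (chr11:50200152-50210820, minus strand) overlaps Mrnip on the opposite strand by 750 bases. The spliced transcript of Sqstm1 matches one of Mrnip over 583 bases at 100% identity, and Mrnip is listed for neither cell type. Optn overlaps an antisense transcript, 4930551O13Rik, by 3854 bases. Map1lc3b overlaps Gm20388, a protein-coding gene model on the same strand, by 8400 bases. Overlaps were measured between whole genes, introns included, so the bases shared by spliced transcripts may be fewer. Counting by strand would not resolve the overlaps on the same strand, those of Gabarapl1 with Gm44243 and of Map1lc3b with Gm20388. The libraries were made with a strand-marking kit, but the sources used here do not say whether counting used the strand, so the values of these members may hold reads of the partner gene.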

How the data were processed

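RNA of 4 HSC and 4 BMDM libraries had been prepared with the TruSeq Stranded mRNA kit. Per the submitters' processing notes, FastQC 0.11.7, Trimmomatic 0.38, HISAT2 2.1.0 and StringTie 1.3.4d were used with the mm10 genome. The authors deposited FPKM values, 1 table for each cell type and each normalized apart, with no counts, so depth had to be estimated from the steps of 1 fragment among values under 0.2 FPKM. Library sums of the deposited FPKM values ranged from 430372 to 485467. The labels give 0.1 µM auranofin for BMDM, and exposure times were taken from the study.

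Each table was fitted alone. After conversion to log2(FPKM + 1) and a filter on a mean FPKM of 1 or more in the 4 libraries (12149 of 18645 in HSC, 9232 of 17408 in BMDM), limma 3.58.1 (lmFit, eBayes with trend) in R 4.3.3 compared 2 auranofin with 2 vehicle libraries. A gene was called at a Benjamini-Hochberg adjusted p under 0.05 over all genes of its table. Fold changes on this scale understate the change of low genes. The fit was tested on simulated data with 200 genes changed 2-fold. Shares and ratios were computed within a library. Promoter windows and motifs came from RefSeq and transcripts from GENCODE M21, where near copies were sought with blastn. The RefSeq promoter table matched 9 of the 10 members, Map1lc3a being the exception.

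The members, gene lists, markers and motifs were chosen with earlier results of these data known. All 10 members were named. From each list at most 4 called genes with the largest absolute log2 fold change were named, and for Sqstm1, the member with the largest change in HSC, the 5 genes most like it. Nfe2l2 in HSC and Ulk1, Bnip3, Hmox1, Ikbke and Atg16l1 in BMDM were named outside this rule, after their values were seen. Alternatives were a pseudocount of 0.1, no filter, a minimum mean of 5 FPKM, median centring, quantile normalization, eBayes without trend, a replicate block, leaving out each library and a call rule of 1.5-fold with an unadjusted p under 0.05.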

Additional observations from a re-analysis of the deposited data

How the results depend on the processing

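With 2 libraries a group and no counts, small differences could not be separated from the spread between libraries, and in BMDM the gap between the auranofin libraries set that spread. In HSC, where 283 genes and 2 members were called, 49 genes and 0 members were called with no filter on low values, 129 and 0 without the trend, and 70 and 0 by the 1.5-fold rule. Leaving out 1 library gave 177 to 493 genes and 1 to 3 members. Of the genes in the 5 other lists, 9 were called, against 3 with no filter and 5 to 9 with 1 library left out. In BMDM, where 1 gene was called, there were 0 with no filter, 0 after quantile normalization, 2 without the trend, 14 by the 1.5-fold rule and 1 to 5997 with 1 library left out, with 0 to 10 members and 0 to 62 genes of the other lists. The highest of these numbers came without auranofin replicate 2, a fit that assumes the lone auranofin library to vary like the vehicle libraries.

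The direction of 3 members in HSC turned when 1 library was left out, namely Nbr1 (-0.01 without vehicle replicate 2), Optn (0.03 without vehicle replicate 1 and 0.00 without auranofin replicate 2) and Map1lc3a (-0.02 without vehicle replicate 1 and -0.01 without auranofin replicate 2). In BMDM it turned without auranofin replicate 1 in Nbr1 (-0.05), Optn (-0.13) and Calcoco1 (-0.04), and with median centring in Optn (-0.02). With 1 library left out, the values ranged from -0.01 to 0.08 for Nbr1 and from -0.02 to 0.04 for Map1lc3a in HSC, and up to 1.22, 0.28 and 0.47 for Nbr1, Optn and Calcoco1 in BMDM. The cause of these turns was not tested. Over all alternatives the log2 fold change in HSC stayed between 0.44 and 0.58 for Sqstm1 (limma, Benjamini-Hochberg adjusted p 0.00132 to 0.0942) and between 0.27 and 0.31 for Gabarapl1 (0.00735 to 0.0621). With a replicate block 282 genes and 2 members were called in HSC, and 1 gene and 0 members in BMDM. The replicate differences of the groups correlated at 0.11 in HSC and -0.055 in BMDM across genes, and with 2 pairs the samples share only a number. Calcoco1 has no BMDM value with a minimum mean of 5 FPKM.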
